A study of Mus musculus with 24 samples.

Results

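The 9 genes described here are Atf4, Ddit3, Xbp1, Trib3, Asns, Chac1, Ppp1r15a, Herpud1 and Sesn2, which encode factors, targets and feedback regulators of the integrated stress response and the unfolded protein response. They were found by their symbols among 17270 genes measured in mouse brain microvessels, and all 9 passed the filter on low values. The rule that found them used no values, but the set was chosen with earlier results of these data known. Male C57BL/6J mice aged 10 to 12 weeks underwent 60 min of transient middle cerebral artery occlusion (tMCAO) with a filament on the right side, or a sham operation in which the filament was retracted at once. Microvessels were isolated 24 h or 7 days later from the hemisphere on the side of surgery (ipsilateral) and from the other hemisphere (contralateral), which gave 8 groups of 3 libraries, each library pooled from 3 hemispheres. All groups had perfused brains without meninges, and the labels give no genetic change. Operated animals received warming, and saline injections and assisted feeding adapted to the condition of each animal. Buprenorphine was injected before surgery and repeatedly past 24 h, but not up to 7 days. The part of this care in the results was not tested. The hemispheres were used whole, so that each library mixed vessels of infarcted and spared tissue, and the isolates held cells of the whole neurovascular unit. Libraries that the study had set aside as standing apart were not analysed here.

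The libraries summed to between 15924780 and 18787932 normalized counts, with a median of 16953257.5. All 8 endothelial markers checked were present in every group, with a summed level of 332916 to 535621 per library, and none of the genes in 12 marker panels was at 0 throughout. At 24 h after tMCAO the summed neutrophil and monocyte markers lay at 3213 to 6194 in the ipsilateral hemisphere against 296 to 1194 in the sham group, a ratio of means of 6.49. The summed neuronal markers came to 0.501 times, and those of pericytes and smooth muscle to 0.688 times, the level of the sham group, without overlap of the libraries. Endothelial markers overlapped, with a ratio of 0.852. The part of these shifts in the results on the 9 genes was not tested, and in bulk samples fewer cells of a type and less RNA per cell cannot be told apart.

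The integrated stress response begins when kinases that sense amino acid shortage, viral RNA, lack of heme or misfolded protein in the endoplasmic reticulum (ER) phosphorylate the α subunit of eIF2. General protein synthesis then slows, whereas the mRNA of the transcription factor ATF4 is translated more, and ATF4 switches on genes for amino acid synthesis, transport and redox balance, as well as its own brakes. The unfolded protein response adds further branches from the ER membrane, IRE1, which splices the Xbp1 mRNA, and ATF6, which both raise chaperones and degradation of misfolded protein. Ischemia and reperfusion are known triggers of both responses in brain tissue. Counts per gene measure the mRNA and separate neither spliced from unspliced Xbp1 nor ATF4 protein from its mRNA.

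ATF4 and C/EBP proteins bind a composite DNA element, and ATF6 binds ER stress response elements. Because the genes of this response share such elements by textbook knowledge, the promoters of the 9 genes were searched from 250 bases before to 50 after the start site (RefSeq, GRCm38.p6), on both strands. The core of the C/EBP-ATF response element, TGATGNAA, was present in 4 of the 9 promoters and in 3.97% of 32851 promoters of the same length. The ER stress response element II (ATTGG and CCACG with 1 base between) was present in 1 of the 9 and in 0.0365% of all promoters. None of the 9 held the ER stress response element (CCAAT and CCACG with 9 bases between, 0.119% of all promoters) or the unfolded protein response element TGACGTGG (0.676%). The matches are given on the strand of the gene, 5′ to 3′, with the motif in capitals. A match on the opposite strand appears as its reverse complement, distances are those from the start site, and the motifs of Herpud1 do not overlap.
Asns, chr6:7693216-7693241, minus strand, distance -23, motif on the same strand: ccagccacaTGATGAAActtcccgca
Chac1, chr2:119351040-119351065, plus strand, distance -193, motif on the opposite strand: tccctgccgTTGCATCActcctgcca
Trib3, chr2:152344030-152344055, minus strand, distance 15, motif on the opposite strand: agctcaggtTTACATCAgccgggcgg
Herpud1, chr8:94386308-94386333, plus strand, distance -112, motif on the opposite strand: cacggcgggTTGCATCAgcccgcacc
Herpud1, chr8:94386368-94386396, plus strand, distance -52, ER stress response element II on the same strand: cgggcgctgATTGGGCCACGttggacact

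Per kilobase of exon, Xbp1 was the most abundant of the 9 transcripts with a mean of 2283 normalized counts per kb over the 24 libraries. It was followed by Atf4 with 1471 and Herpud1 with 1184 normalized counts per kb. Ddit3 (230), Ppp1r15a (225), Trib3 (154) and Asns (147) lay lower, and Sesn2 (42.9) and Chac1 (27.1) were the least abundant per kb. Chac1 thus rested on few reads, with 16 to 117 normalized counts per library. The deposited annotation placed Atf4, Ddit3, Xbp1, Ppp1r15a and Herpud1 in the KEGG term for protein processing in the ER.

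**Figure D1:**
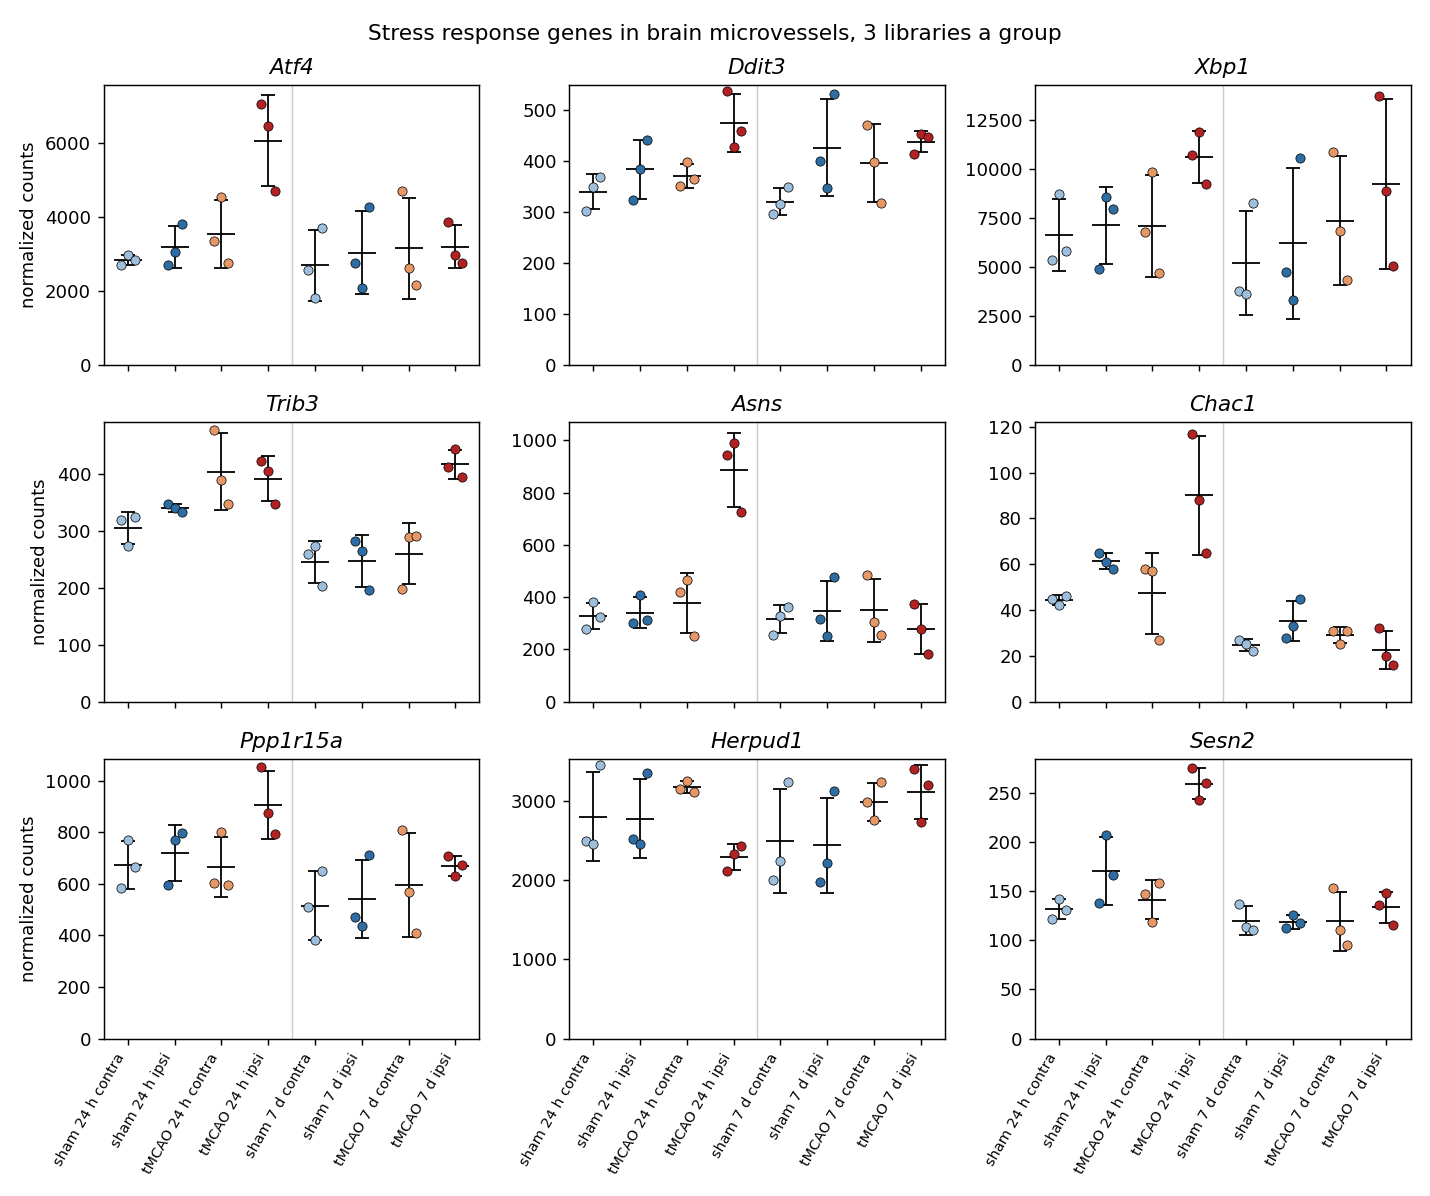
Normalized counts (y axis, linear, starting at 0) of the 9 genes in the 8 groups (x axis, by surgery, hemisphere and time point). Points are the 3 libraries of a group, the horizontal line is their mean and the bar their SD. The ipsilateral hemisphere 24 h after tMCAO had the highest group mean for all genes but Trib3 and Herpud1. For Trib3 it was the ipsilateral hemisphere 7 days after tMCAO.

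The first comparison was that of the ipsilateral hemispheres of tMCAO- and sham-operated mice at 24 h, the acute phase. Atf4, Asns and Sesn2 were higher after tMCAO, by 1.89-fold, 2.60-fold and 1.54-fold. None of the 9 genes was called lower. A gene was called when its adjusted p (limma, Benjamini-Hochberg over all 15982 tested genes) was under 0.05 and its change exceeded 1.5-fold. Of all tested genes 18.3% were called, 10% higher and 8.23% lower, and the 3 of 9 called higher stand against that background. The median log2 fold change was 0.51 over the 9 genes and -0.02 over all tested genes.

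Among the transcription factors, Atf4 (ENSMUSG00000042406, chr15:80255184-80257540, plus strand of mm10), the central effector of the integrated stress response, had 7065, 6459 and 4697 normalized counts in the libraries of the ipsilateral hemisphere 24 h after tMCAO. The sham libraries had 2714, 3051 and 3809. All tMCAO libraries lay above all sham libraries, and the log2 fold change was 0.92 (SE 0.29, adjusted p = 0.0234 by limma). The call depended on single libraries. It was lost without sham replicate 1 (adjusted p = 0.0916), sham replicate 2 (0.0592), tMCAO replicate 1 (0.0908) or tMCAO replicate 2 (0.0734), while the log2 fold change of Atf4 stayed between 0.80 and 1.10 under all alternatives.

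Ddit3 (ENSMUSG00000025408, chr10:127290774-127296288, plus strand), which encodes the pro-apoptotic factor CHOP downstream of ATF4, had 538, 429 and 459 normalized counts after tMCAO and 325, 385 and 442 after sham surgery. The ranges overlapped in 1 tMCAO library, and the log2 fold change was 0.31 (SE 0.16, adjusted p = 0.134, limma). Xbp1 (ENSMUSG00000020484, chr11:5520659-5525893, plus strand), the transcription factor of the IRE1 branch, had 10690, 11885 and 9215 normalized counts against 4859, 8549 and 7925. The groups did not overlap, but the log2 fold change of 0.61 had an SE of 0.44, since Xbp1 varied more within groups than the other 8 genes, and it was not called (adjusted p = 0.3, limma).

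Of the targets in amino acid supply, Asns (ENSMUSG00000029752, chr6:7675169-7693254, minus strand), asparagine synthetase, showed the largest difference of the 9 genes. Its libraries had 945, 991 and 727 normalized counts after tMCAO and 301, 408 and 313 after sham surgery. The lowest tMCAO library thus lay well above the highest sham library, with a log2 fold change of 1.38 (SE 0.29, 95% confidence interval 0.78 to 1.98, adjusted p = 0.00143, limma). The call of Asns was kept under every alternative, with adjusted p between 0.00137 and 0.01.

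Sesn2 (ENSMUSG00000028893, chr4:132492032-132510501, minus strand), a leucine sensor that restrains mTORC1, had 275, 243 and 260 normalized counts after tMCAO and 138, 207 and 166 after sham surgery. The groups did not overlap, and the log2 fold change was 0.62 (SE 0.17, adjusted p = 0.0109, limma), just past the limit of 1.5-fold. It fell short of that limit with the libraries centred on their medians (0.56) and without tMCAO replicate 1 (0.58), and without sham replicate 1 Sesn2 had a log2 fold change of 0.48 (adjusted p = 0.0736).

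Chac1 (ENSMUSG00000027313, chr2:119351229-119354381, plus strand), an enzyme that degrades glutathione, had 117, 88 and 65 normalized counts after tMCAO and 65, 61 and 58 after sham surgery. The lowest tMCAO library equalled the highest sham library, and the log2 fold change of 0.51 (SE 0.29) was not called (adjusted p = 0.183, limma).

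The feedback regulators and the ER degradation gene were not called at 24 h. Trib3 (ENSMUSG00000032715, chr2:152337422-152344032, minus strand), a pseudokinase that is a target of ATF4 and CHOP and restrains ATF4, had 424, 405 and 348 normalized counts against 347, 340 and 334. These groups were set apart by 1 normalized count, and the log2 fold change was 0.20 (SE 0.16, adjusted p = 0.367, limma). Ppp1r15a (ENSMUSG00000040435, chr7:45522917-45526268, minus strand) encodes GADD34, which directs a phosphatase to eIF2α, and had 1051, 873 and 794 against 595, 768 and 796 normalized counts. Its groups overlapped by 1 library, with a log2 fold change of 0.33 (SE 0.23, adjusted p = 0.276, limma). Herpud1 (ENSMUSG00000031770, chr8:94386438-94395377, plus strand), an ER membrane protein of the degradation machinery, had 2114, 2334 and 2433 normalized counts against 2522, 2462 and 3354. All its tMCAO libraries lay below all sham libraries, opposite in direction to the other 8 genes, with a log2 fold change of -0.26 (SE 0.18, adjusted p = 0.270, limma). In all, the libraries of both groups did not overlap for 6 of the 9 genes, against 49% of all tested genes.

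At 7 days, the early regeneration phase, the same comparison called Trib3 only. Its ipsilateral libraries had 413, 445 and 395 normalized counts after tMCAO and 283, 265 and 196 after sham surgery. All tMCAO libraries lay above all sham libraries, with a log2 fold change of 0.77 (SE 0.16, adjusted p = 0.00239, limma), a 1.70-fold difference. The call of Trib3 was kept under every alternative, with adjusted p between 0.00228 and 0.0237. Of all tested genes 13.2% were called in this comparison, 3.27% higher and 9.95% lower.

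The genes called at 24 h had values near those of the sham group at 7 days. Atf4 had 3861, 2986 and 2763 normalized counts after tMCAO and 2757, 2073 and 4277 after sham surgery, a log2 fold change of 0.13 (adjusted p = 0.822, limma). Asns had 374, 280 and 183 against 315, 250 and 476, a log2 fold change of -0.32 (SE 0.29, adjusted p = 0.506). Sesn2 had 136, 148 and 116 against 112, 126 and 118, a log2 fold change of 0.16 (SE 0.17, adjusted p = 0.592). The groups of these 3 genes overlapped. Chac1 had the largest negative value of the 9, with 32, 20 and 16 normalized counts after tMCAO against 28, 33 and 45 and a log2 fold change of -0.65 (SE 0.29, adjusted p = 0.134, limma). Xbp1 spread widely in both groups, from 5039 to 13697 normalized counts after tMCAO and from 3282 to 10540 after sham surgery, with a log2 fold change of 0.63 (adjusted p = 0.367). The remaining values were 0.37 for Herpud1 (adjusted p = 0.171), 0.34 for Ppp1r15a (0.347) and 0.062 for Ddit3 (0.838). For 1 of the 9 genes the groups did not overlap, against 30% of all tested genes, and the median log2 fold change was 0.16 over the 9 genes and 0.02 over all tested genes. At this time the summed markers of proliferation were 5.23 times, and those of the choroid plexus 0.0834 times, those of the sham group without overlap. Markers of neurons (0.432), fibroblasts (0.507), astrocytes (0.519), macrophages (0.669) and pericytes and smooth muscle (0.699) were lower without overlap as well, while those of neutrophils and monocytes (3.40) and endothelium (1.22) overlapped. The part of these shifts in the value of Trib3 was not tested.

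The ipsilateral hemispheres after tMCAO were next compared between 7 days and 24 h. Asns, Chac1, Sesn2 and Atf4 were lower at 7 days, by 3.28-fold, 3.89-fold, 1.95-fold and 1.89-fold, and none of the 9 was higher. Of all tested genes 12.2% were called, 3.72% higher and 8.44% lower, and 4 of the 9 genes stand against this. The log2 fold change fell by 1.96 for Chac1 (SE 0.29, adjusted p = 1.33e-04, limma), whose libraries at 24 h (65 to 117 normalized counts) lay above all libraries at 7 days (16 to 32). It fell by 1.71 for Asns (SE 0.29, adjusted p = 4.25e-04), by 0.96 for Sesn2 (SE 0.17, adjusted p = 8.00e-04) and by 0.92 for Atf4 (SE 0.29, adjusted p = 0.0335). The libraries did not overlap for any of these 4 genes. For Atf4 the call was lost without tMCAO 24 h replicate 1 (adjusted p = 0.134), 24 h replicate 2 (0.0938), 7 days replicate 2 (0.0880) or 7 days replicate 3 (0.113), and for the other 3 it was kept under every alternative.

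Trib3 kept a similar level in both groups (log2 fold change 0.093), since the tMCAO libraries at 24 h (348 to 424 normalized counts) overlapped those at 7 days. In the sham ipsilateral groups, Trib3 went from 334 to 347 normalized counts at 24 h to 196 to 283 at 7 days, without overlap, with a log2 fold change of -0.47 (SE 0.16, adjusted p = 0.187, limma). Ppp1r15a (-0.43, adjusted p = 0.200) and Herpud1 (0.44, adjusted p = 0.0922) did not overlap between the time points after tMCAO but were not called. Ddit3 (-0.11) and Xbp1 (-0.31) overlapped. For 6 of the 9 genes the libraries of both times did not overlap, against 34.2% of all tested genes.

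Chac1 was lower at 7 days in sham-operated mice as well. The ipsilateral sham libraries had 65, 61 and 58 normalized counts at 24 h and 28, 33 and 45 at 7 days, and the contralateral sham libraries 45, 42 and 46 against 27, 25 and 22. Neither pair overlapped, with log2 fold changes of -0.80 and -0.82 (SE 0.29 for both) that were not called (adjusted p = 0.195 and 0.255, limma). With the contralateral hemisphere after tMCAO (-0.62), the difference of Chac1 between the times was negative in all 4 pairs of groups.

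Whether the effect of tMCAO differed between the times was tested as an interaction in the same fit, on the ipsilateral hemispheres. The effect on Asns was smaller at 7 days than at 24 h by 1.70 on the log2 scale (log2 difference -1.70, SE 0.41, adjusted p = 0.0114, limma), and Asns was the only gene of the 9 called, against 8.12% of all tested genes. The call of Asns was kept under every alternative. Chac1 (-1.16, SE 0.40, adjusted p = 0.0727), Herpud1 (0.64, SE 0.25, adjusted p = 0.114), Trib3 (0.57, SE 0.23, adjusted p = 0.123), Atf4 (-0.79, SE 0.42, adjusted p = 0.231) and Sesn2 (-0.46, SE 0.24, adjusted p = 0.238) were not called. A different effect at both times was therefore shown for Asns only. Chac1 was called without tMCAO 24 h replicate 3 (adjusted p = 0.0412) or tMCAO 7 days replicate 1 (0.0276), and Herpud1 without sham 7 days replicate 3. These comparisons share the ipsilateral tMCAO and sham libraries with those above.

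**Figure D2:**
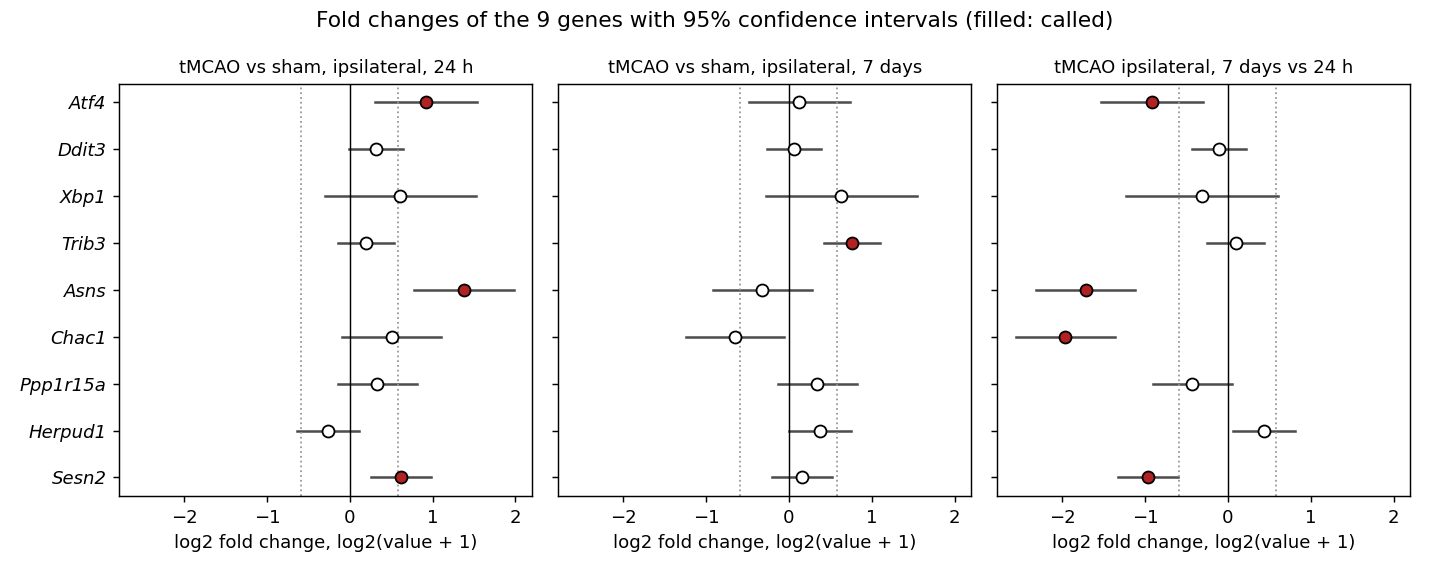
Log2 fold changes (x axis) of the 9 genes (y axis) with 95% confidence intervals (bars) in the 3 comparisons of the ipsilateral hemisphere. Filled points are called genes and dotted lines mark 1.5-fold. Asns has the largest positive value at 24 h (1.38) and Trib3 at 7 days (0.77), and Chac1 (-1.96) and Asns (-1.71) lie farthest below 0 between 7 days and 24 h.

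Both hemispheres of tMCAO-operated mice were then compared. At 24 h after tMCAO, Asns, Chac1 and Sesn2 were higher in the ipsilateral than in the contralateral hemisphere, by 2.40-fold, 1.93-fold and 1.84-fold. Of all tested genes 13.7% were called, 8.52% higher and 5.14% lower. The contralateral libraries had 418, 467 and 250 normalized counts of Asns (log2 fold change 1.26, SE 0.29, adjusted p = 0.00326, limma) and 147, 119 and 158 of Sesn2 (0.88, SE 0.17, adjusted p = 0.00107). Those of Chac1 had 58, 57 and 27 (0.95, SE 0.29, adjusted p = 0.0196). All ipsilateral libraries lay above these. The call of Chac1 was lost without ipsilateral replicate 1 (adjusted p = 0.112), ipsilateral replicate 2 (0.0535) or contralateral replicate 3 (0.140), and when the groups compared were fitted alone (0.0943). Atf4, with 3355, 4546 and 2747 normalized counts in the contralateral hemisphere, lay below all ipsilateral libraries as well, but was not called (log2 fold change 0.78, SE 0.29, adjusted p = 0.0567). Atf4 was called with the pool of mice as a block in limma (adjusted p = 3.53e-04), but the pairing after tMCAO was not settled. Herpud1 had 3156, 3258 and 3111 normalized counts in the contralateral hemisphere and was lower in every ipsilateral library (log2 fold change -0.47, SE 0.18, adjusted p = 0.0600, not called). Ddit3 did not overlap either (0.35, adjusted p = 0.106), which made 6 of 9 genes against 40.8% of all tested genes.

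At 7 days after tMCAO, Trib3 was the only one of the 9 genes called between the hemispheres. Its contralateral libraries had 199, 290 and 292 normalized counts, all below the ipsilateral ones (log2 fold change 0.70, SE 0.16, adjusted p = 0.00409, limma), a 1.62-fold difference. Of all tested genes 13% were called, 3.03% higher and 9.98% lower, and 25.3% did not overlap. The call of Trib3 was lost without contralateral replicate 1 (log2 fold change 0.52) and when these groups were fitted alone (adjusted p = 0.0580). Chac1 (-0.39), Asns (-0.33), Xbp1 (0.31) and the other 5 genes overlapped.

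In the test of whether the effect of tMCAO differed between the hemispheres, none of the 9 genes was called by limma with all groups in the fit, but this depended on the fit. Calls with the pool of mice as a block are given in the last paragraph. Asns was called at 24 h when the groups compared were fitted alone (adjusted p = 0.0293), and Trib3 at 7 days with the libraries centred on their medians (adjusted p = 0.0469) and without sham ipsilateral replicate 1 (0.0416), sham contralateral replicate 3 (0.0360), tMCAO contralateral replicate 2 (0.0431) or tMCAO contralateral replicate 3 (0.0382). At 24 h the log2 difference of the effects was 1.21 for Asns (SE 0.41, adjusted p = 0.0723, limma), 0.53 for Sesn2 (adjusted p = 0.188) and 0.63 for Atf4 (adjusted p = 0.364). No gene of the 9 was called and 2 had an unadjusted p under 0.05, against 5.89% and 24.5% of all tested genes. At 7 days it was 0.69 for Trib3 (SE 0.23, adjusted p = 0.0627) and -0.87 for Chac1 (adjusted p = 0.221), with no gene of the 9 called and 2 with an unadjusted p under 0.05, against 9.84% and 20.7% of all tested genes.

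In the 7 comparisons among control groups, limma called none of the 9 genes. Of all tested genes 0.476% were called between the times in the ipsilateral sham hemisphere, 0.332% between the times in the contralateral sham hemisphere, 0.0313% between the contralateral hemispheres of both surgeries at 7 days, and 0% in the other 4. Between the sham hemispheres, 0 of the 9 genes at 24 h and 1 at 7 days (Ddit3, log2 fold change 0.39) had an unadjusted p under 0.05, against 2.3% and 2.25% of all tested genes. Between the contralateral hemispheres after tMCAO and sham surgery it was 1 at 24 h (Trib3, 0.40) and 0 at 7 days, against 2.53% and 10.3%. Between the times it was 2 in the contralateral hemisphere after tMCAO (Trib3, -0.64, adjusted p = 0.123, and Chac1, -0.62, adjusted p = 0.287), against 16.5%. In sham-operated mice it was 3 in the ipsilateral hemisphere (Trib3, Chac1 and Sesn2, the last with -0.50, adjusted p = 0.188) against 14.1%, and 1 in the contralateral hemisphere (Chac1) against 10.8%. Trib3 and Chac1 thus appeared in 3 each of these 7 comparisons, more often than any other of the 9 genes. The genes given by name here were picked once their values were known.

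Over the 8 groups, Atf4, Asns and Sesn2 had their highest mean in the same group, which was also the highest for Chac1, Ddit3, Xbp1 and Ppp1r15a. In the ipsilateral hemisphere of mice 24 h after tMCAO, Atf4 had 6074 ± 1230 normalized counts (mean ± SD, n = 3), followed by 3549 ± 915 in the contralateral hemisphere of these mice. The other 6 group means lay between 2698 and 3203, and each of these groups overlapped its neighbour in the order. Asns had 888 ± 141 in the same group, followed by 378 ± 114 in the contralateral hemisphere, and the lowest mean, 279 ± 95.5, was that of the ipsilateral hemisphere 7 days after tMCAO. Sesn2 had 259 ± 16, followed by 170 ± 34.7 in the sham ipsilateral group at 24 h, and its other 6 means lay between 119 and 141. For these 3 genes the highest group did not overlap the next in the order of means, and all later neighbours overlapped. The highest group overlapped no other for Asns and Sesn2, whereas for Atf4 1 contralateral library 7 days after tMCAO (4710) lay above its lowest library (4697).

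The order of Chac1 followed the time point rather than the surgery below its highest group. Its 4 groups at 24 h had means of 90 ± 26.1 (tMCAO ipsilateral), 61.3 ± 3.51 (sham ipsilateral), 47.3 ± 17.6 (tMCAO contralateral) and 44.3 ± 2.08 (sham contralateral) normalized counts. All 4 groups at 7 days were lower, at 35.3 ± 8.74 (sham ipsilateral), 29 ± 3.46 (tMCAO contralateral), 24.7 ± 2.52 (sham contralateral) and 22.7 ± 8.33 (tMCAO ipsilateral). Neighbours in this order overlapped or met at an equal value.

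Trib3 had its highest means at 7 days in the ipsilateral hemisphere after tMCAO (418 ± 25.3 normalized counts) and at 24 h in both hemispheres after tMCAO (405 ± 66.9 contralateral and 392 ± 39.5 ipsilateral), and these 3 groups overlapped. The sham groups at 24 h followed with 340 ± 6.51 and 305 ± 28.1, and the other 3 groups at 7 days lay between 246 and 260. The sham ipsilateral group at 24 h overlapped neither of its neighbours in this order, and the remaining neighbours overlapped. Ddit3 ranged from 320 ± 26.8 (sham contralateral, 7 days) to 475 ± 56.3 (tMCAO ipsilateral, 24 h), and Ppp1r15a from 515 ± 135 to 906 ± 132 in the same groups. Xbp1 had its lowest and highest means in these groups too, 5191 ± 2630 and 10597 ± 1337. Herpud1 differed in its order, with its lowest mean of 2294 ± 163 in the ipsilateral hemisphere 24 h after tMCAO and its highest of 3175 ± 75.3 in the contralateral hemisphere of these mice.

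Other genes of both responses were taken from 10 lists of 109 genes by role, of which 106 were tested (Fgf21, Derl3 and Vimp were not). The lists too were chosen with earlier results of these data known. At 24 h in the ipsilateral hemisphere, 33 of the 106 were called higher and 6 lower after tMCAO (36.8%, against 18.3% of all tested genes), with a median log2 fold change of 0.34. ER chaperones and folding enzymes had the largest share of higher genes, with 11 of 17 higher and none lower (median 0.69), followed by cytosolic aminoacyl-tRNA synthetases, which load amino acids onto tRNA, with 11 of 20 higher and none lower (median 0.63). Amino acid synthesis had 5 of 11 higher and 1 lower (median 0.69). Amino acid transport had none of 9 higher and 3 lower (median -0.12), and 1 lower without sham replicate 1. None of 8 tested genes of ER-associated degradation was called by limma. An unadjusted p under 0.05 was reached by 4, and by at least the 18.3% of all tested genes that were called. The full share at that threshold is not given here, so the 4 are not read as a result. Of 12 genes of ER translocation and export 2 were higher, and of 10 sensors, kinases and eIF2 factors, 8 related bZIP factors and 8 feedback genes and paralogs 1 each was higher, with 1 of the last group lower. Of 3 secreted factors 1 was higher and 1 lower. Leaving out single libraries gave 30 to 35 higher over all lists, and 2 to 5 lower, with 2 lower without sham replicate 1 and 3 without sham replicate 2 or tMCAO replicate 2. The markers of neutrophils and monocytes, neurons and pericytes moved with this comparison as given above, and their part was not tested.

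The genes of amino acid supply included Mthfd2, a mitochondrial folate enzyme, which went from 108 ± 26.1 normalized counts after sham surgery to 397 ± 81.6 after tMCAO at 24 h (log2 fold change 1.87, SE 0.43, adjusted p = 0.00327, limma). Pycr1, of proline synthesis, went from 13 ± 2.65 to 45 ± 11.4 (1.71, SE 0.30, adjusted p = 3.33e-04). Slc7a5, the large neutral amino acid transporter that is abundant at the blood-brain barrier, went the other way, from 23636 to 11566 (-1.0, SE 0.24, adjusted p = 0.00360), as did Slc7a1 for cationic amino acids (-0.92, adjusted p = 0.00977), whose call was lost without sham replicate 1 (adjusted p = 0.0532). Slc6a9 (-0.77, adjusted p = 0.0309) was lost without 5 of the 6 libraries (highest adjusted p = 0.151, without tMCAO replicate 2), and Cbs (-0.93, adjusted p = 0.0416), the one lower gene of amino acid synthesis, without any of the 6 (highest adjusted p = 0.117, without sham replicate 1).

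Rars, the arginyl-tRNA synthetase, rose from 865 ± 15.3 to 1767 ± 236 normalized counts (log2 fold change 1.02, SE 0.092, adjusted p = 3.92e-07, limma) and Tars by 0.74 (adjusted p = 8.10e-05). In the ER, Sdf2l1, a cofactor of the chaperone BiP, rose from 131 ± 50.2 to 373 ± 56.4 (1.55, SE 0.23, adjusted p = 6.08e-05) and Pdia6, a disulfide isomerase, from 2779 ± 418 to 5709 ± 598 (1.04, SE 0.11, adjusted p = 1.56e-06). Sec61b of the translocon (0.96, adjusted p = 1.48e-04) and Ssr2 of the translocon-associated complex (0.85, adjusted p = 8.98e-05) were the 2 called genes of translocation. Upstream, Eif2s1, the α subunit of eIF2, rose from 757 ± 72.6 to 1436 ± 228 (0.91, SE 0.15, adjusted p = 1.83e-04). Among the related bZIP factors, Cebpb, a partner of ATF4 that is also induced by inflammation, rose from 314 ± 164 to 1079 ± 208 (1.89, SE 0.46, adjusted p = 0.00446). Gdf15, a secreted factor, had 4 to 9 normalized counts after sham surgery and 62 to 350 after tMCAO (4.12, SE 0.59, adjusted p = 5.03e-05), with a log2 fold change of 3.32 without tMCAO replicate 1. Chac2, the paralog of Chac1, rose by 0.67 (adjusted p = 0.0161), a call lost without sham replicate 1 (0.0628) or tMCAO replicate 2 (0.0751). Ddit4l fell by 0.72 (adjusted p = 7.76e-04), and without sham replicate 2 it fell just short of the 1.5-fold limit. Stc2, the other called secreted factor (-0.65, adjusted p = 0.0490), overlapped between the groups and lost its call without 5 of the 6 libraries (highest adjusted p = 0.3, without tMCAO replicate 2). Its call was also lost with no filter on low values (0.0512) and with the compared groups fitted alone (0.0978).

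At 7 days 3 of the 106 list genes were called higher and 5 lower (7.55%, against 13.2% of all tested genes), with a median log2 fold change of 0.06. The higher ones were Vars, the valyl-tRNA synthetase (0.90, SE 0.13, adjusted p = 8.14e-05, limma), Sdf2l1 (0.77, adjusted p = 0.0229) and Ddit4, which encodes the mTORC1 inhibitor REDD1 and went from 4042 to 10898 normalized counts (1.38, SE 0.36, adjusted p = 0.0116). Ddit4 lost its call without sham replicate 1 (0.0666) or tMCAO replicate 1 (0.0770), which left 1 higher list gene each, and Sdf2l1 without any of 4 libraries (highest adjusted p = 0.0865, without tMCAO replicate 2). The lower ones were Slc7a11, the cystine transporter that feeds glutathione synthesis (from 2301 ± 680 to 675 ± 114, log2 fold change -1.74, SE 0.21, adjusted p = 1.52e-05), Vegfa (-1.47, SE 0.34, adjusted p = 0.00526), Ddit4l (-0.80, adjusted p = 3.81e-04), Sesn3 (-0.66, adjusted p = 0.00198) and Slc6a9 (-0.86, adjusted p = 0.0259). Slc6a9 lost its call without any of 3 libraries (highest adjusted p = 0.191, without tMCAO replicate 1) and with the compared groups fitted alone (0.094). In this comparison the astrocyte markers were 0.519 times and the neuronal markers 0.432 times those of the sham group without overlap, and their part in these values was not tested. In the test of the difference between the times, 29 of the 106 list genes were called lower and 2 higher (29.2%, against 8.12% of all tested genes), among them 10 of 20 tRNA synthetases, 7 of 17 chaperones and 4 of 11 genes of amino acid synthesis. The count of 29 was 17 without sham 24 h replicate 1 and 18 with the libraries centred on their medians, when 6 synthetases and 3 chaperones were called. Without sham 24 h replicate 1, 4 chaperones and 2 genes of amino acid synthesis were called, and 2 of the latter also without tMCAO 24 h replicate 2 or tMCAO 7 days replicate 3, and the count of 2 higher went to 0 without any of 6 single libraries. In the difference of the effect between the hemispheres, 28 list genes were called higher and 1 lower at 24 h (27.4%, against 5.89% of all tested genes), and 0 higher and 6 lower at 7 days (5.66%, against 9.84%). None of the list genes was called by limma in the 7 control comparisons, in which 0 to 16 of them had an unadjusted p under 0.05. The 16, between the times in the ipsilateral sham hemisphere, were 15.1% of the list genes, against 14.1% of all tested genes.

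**Figure D3:**
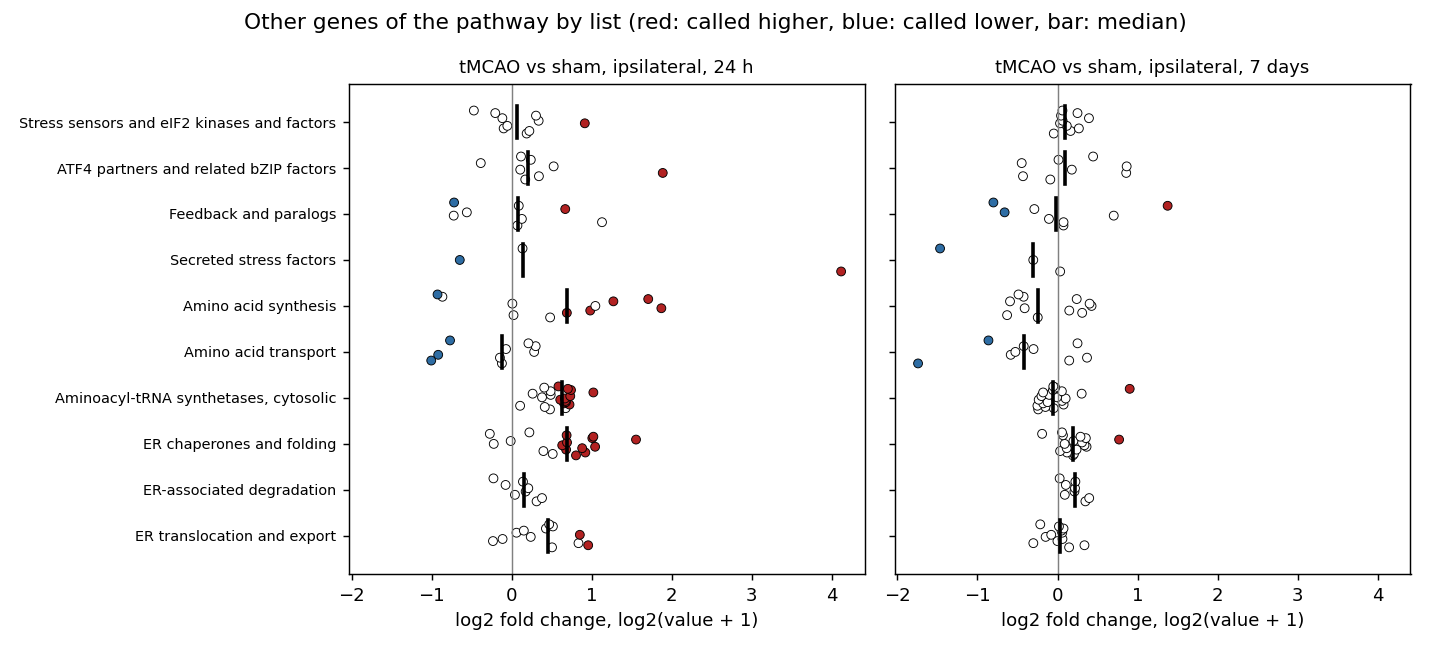
Log2 fold changes of tMCAO against sham (x axis) of the 106 tested genes of the 10 lists (y axis) in the ipsilateral hemisphere at 24 h and 7 days. Each point is a gene, red points are called higher, blue points called lower, and the bar is the median of a list. The medians of the chaperones (0.69) and tRNA synthetases (0.63) at 24 h lie at 0.20 and -0.05 at 7 days.

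Within groups, Xbp1, Atf4, Asns and Ppp1r15a tended to be high or low in the same libraries. The library with the most Atf4 was also the one with the most Ppp1r15a in 8 of 8 groups, and the library with the most Xbp1 had the most Asns in 8 of 8. Atf4 and Xbp1 shared the lowest library in 8 of 8 groups. These pairs were picked once their counts were known, and the counts were not set against those of other genes. Same-numbered sham hemispheres were taken as paired, so the 8 groups are not 8 separate observations. Trib3 went otherwise for the highest library, which it shared with Xbp1 or Asns in 0 of 8 groups and with Atf4 in 1. Its lowest library was shared with Xbp1, Asns and Atf4 in 3 of 8 groups each. In the sham groups at 7 days, replicate 3 had the highest value of 6 of the 9 genes in the contralateral and of 7 in the ipsilateral hemisphere. The same replicate stood apart in its markers, with 1307 and 1766 normalized counts of neutrophil and monocyte markers in the contralateral and ipsilateral library against 241 to 412 in replicates 1 and 2, and 516628 and 485607 of endothelial markers against 332916 to 379364. Its ipsilateral library had 28990 of astrocyte markers against 13404 and 14395, and the part of these markers was not tested. There Xbp1 had 4746, 3282 and 10540 normalized counts in the ipsilateral libraries, a 3.21-fold range, and Atf4 had a 2.19-fold range within a group at most. The residual SD on the log2 scale was 0.593 for Xbp1 (the 88.1st percentile of all tested genes) and 0.395 for Atf4 (the 71.1st), and lay between 0.195 for Ddit3 and 0.383 for Asns for the other 7, with a median of 0.238 over all tested genes. The genes of a library share its cells of origin and depth, and the source of the shared spread was not tested.

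**Figure D4:**
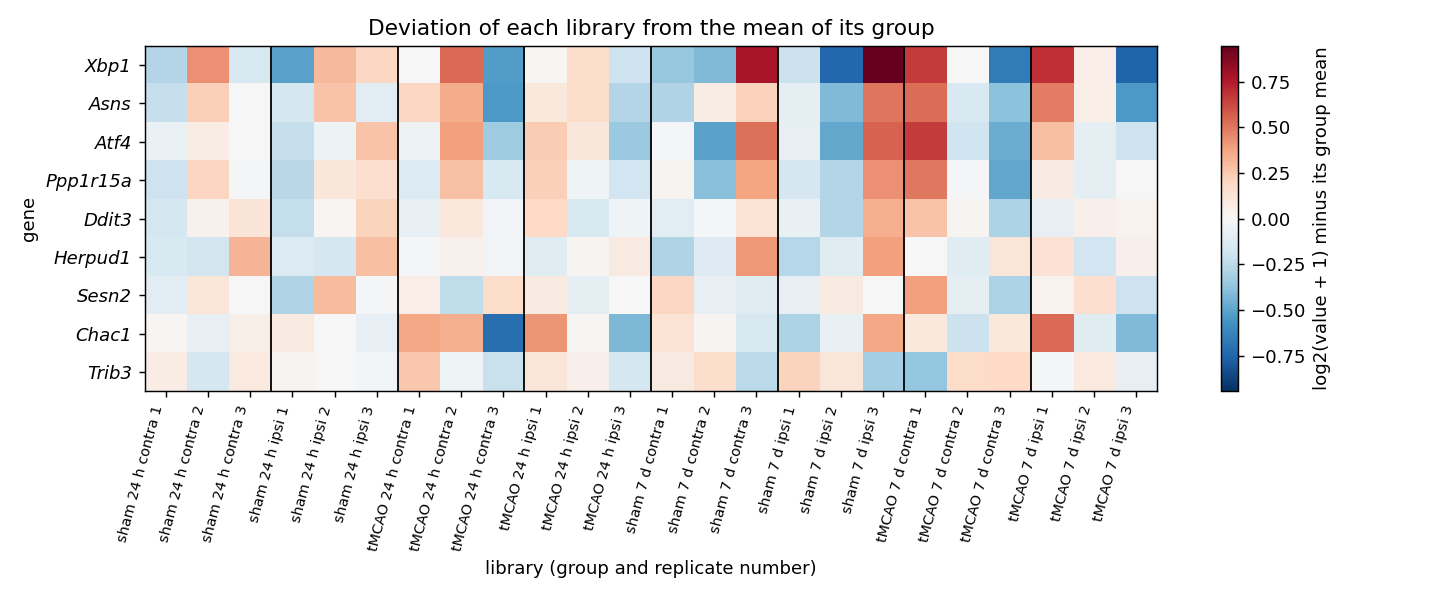
Deviation of each library from its group mean on the log2(value + 1) scale (colour) for the 9 genes (vertical axis) in the 24 libraries (horizontal axis, by group). Xbp1 varies most (residual SD 0.593) and Ddit3 least (0.195), and replicate 3 of both sham groups at 7 days is high for most of the 9 genes.

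The genes most like each of the 9 over the 8 groups were found by the distance between standardized group means on the log2 scale, among 12151 genes with a mean above 50 normalized counts. Closest to Atf4 was Prr5 (distance 0.156), to Asns Pnpt1 (0.250), to Chac1 Kcne4 (0.292) and to Xbp1 Tnfrsf9 (0.385). Chac1 was also near the immediate early gene Egr1 (0.396) and Xbp1 near the cytokine response gene Socs3 (0.404). Trib3 was closest to Mdm1 (0.440), Ppp1r15a to Zdhhc5 (0.441), Ddit3 to Steap4 (0.526), Sesn2 to Mdn1 (0.526) and Herpud1 to Paqr5 (0.546). Among the 9 themselves the closest pairs were Atf4 with Asns (0.977) and Atf4 with Sesn2 (0.997). Each of the 9 had a nearer gene outside the set. With 12151 candidates searched there, this was nearly certain in advance and does not show whether the 9 share a pattern. Such distances over 8 groups describe likeness of pattern only.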

How the data were processed

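RNA of brain microvessels was sequenced from stranded mRNA libraries. The authors aligned the reads to mm10 with STAR 2.5.2b, counted them per gene with featureCounts 1.5.1 without reads matching several genes, and divided them by DESeq2 1.6.2 size factors (versions from the submitters' processing notes). The deposited values are these normalized counts rounded to whole numbers, treated as a score, not as reads. From the gaps between low values, 13691467 to 20033951 reads were estimated in 20 libraries, which sets the precision of genes as low as Chac1.

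Groups came from the labels. Values of 15982 genes with a mean above 5 were fitted as log2(value + 1) with limma 3.58.1 (R 4.3.3, mean-variance trend, all 8 groups in 1 fit) and adjusted by Benjamini-Hochberg over these genes. A gene was called with an adjusted p under 0.05 and a fold change above 1.5. Fold changes are on the log2(value + 1) scale and understate those of low genes. Since libraries are pools, p-values measure the spread between pools. The fit was tested on simulated data. DESeq2 and edgeR tests were not run, as the values are not counts. Tables were handled with the data.table package (1.17.8), Python 3.11.15, numpy 2.4.6 and pandas 2.3.3, and plots drawn with matplotlib 3.10.9. Lengths came from GENCODE vM21 and promoters from RefSeq.

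The 9 genes, the lists and the tests were chosen with earlier results of these data known. List genes named are the 2 with the largest increase and decrease per list among those called, other names being marked. Alternatives were a pseudocount of 0.5, no filter, a minimum mean of 20, median centring, no fold limit, the compared groups alone, a replicate block and each library left out; for the lists they were added after seeing the data. Same-numbered hemispheres of sham mice deviated together (correlations 0.145 to 0.410 at 24 h and 0.325 to 0.467 at 7 days) and were taken as paired. The main fit held no term for pairs, so its comparisons of hemispheres were unpaired, and the pairing entered only through the replicate block.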

Additional observations from a re-analysis of the deposited data

Results flagged for a closer look

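The effect of tMCAO in the ipsilateral hemisphere differed between the times by limma's interaction test for 1 of the 9 genes, Asns, with a log2 difference (7 days minus 24 h) of -1.70. Among the other named genes of the response, it differed by -4.08 for Gdf15, -2.28 for Mthfd2, -1.62 for Slc7a11, -1.60 for Vegfa, -1.47 for Pycr1, -1.20 for Rars, -0.96 for Chac2, -0.93 for Ssr2, -0.88 for Eif2s1, -0.80 for Tars and -0.68 for Pdia6. Slc7a5 was the single named gene called with a positive difference, 1.15. For Gdf15, Mthfd2, Pycr1, Rars, Chac2, Ssr2, Eif2s1, Tars and Pdia6 the effect was called at 24 h and not at 7 days, for Slc7a11 and Vegfa at 7 days and not at 24 h. The call of the difference was kept under every alternative for Asns, Gdf15, Slc7a11, Rars, Ssr2, Eif2s1 and Tars. It was lost without several single libraries for Vegfa (highest adjusted p = 0.124, without sham 24 h replicate 1), Chac2 (0.0948, without tMCAO 7 days replicate 3), Pycr1 (0.0891, without tMCAO 24 h replicate 2), Slc7a5 (0.0858, without sham 7 days replicate 1) and Mthfd2 (0.0678, without sham 24 h replicate 1), and Pdia6 came to -0.58 with median centring, short of the fold limit. With median centring Chac2 (0.0584) and Pycr1 (0.0510) lost their calls as well, and Chac2 also with the compared groups alone (0.0545), which made 10 of 19 alternatives for Chac2.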

How the results depend on the processing

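Counts of called genes of the 9 kept within 1.5 times under 203 of 210 other settings and 206 of 216 omissions of a library. Most of these counts were 0 in the main fit, and a fall from 3 to 2 lay within that limit, so these shares say little about single calls. Except without the fold limit, the counts below are given without the share of all tested genes under the same setting. They describe only how the calls depend on the setting, not the 9 genes against a background. With the pool of mice as a block, 5 were higher between the hemispheres 24 h after tMCAO (with Atf4, adjusted p = 3.53e-04, and Xbp1), and 2 (Atf4 and Asns, the latter with adjusted p = 0.00143) at 24 h and 1 (Trib3, adjusted p = 0.0117) at 7 days in the difference between hemispheres. The criterion set for that pairing was not met after tMCAO (lowest correlations 0.0658 at 24 h and 0.0593 at 7 days). Still, 6 of 6 libraries per surgery and time were closest to their own number, so that pairing after tMCAO was left unsettled. With the replicate number as a block, Herpud1 was the 1 gene higher in the difference between the times (adjusted p = 0.0371), and no other call changed. Same-numbered tMCAO and sham libraries correlated between -0.252 and 0.150. With the groups compared alone, 0 were higher between hemispheres at 7 days and 1 (Asns, adjusted p = 0.0293) in the difference between hemispheres at 24 h. With median centring, 1 (Trib3, 0.77, adjusted p = 0.0469) was higher in that at 7 days. Leaving out a library gave 1 to 3 genes higher at 24 h against sham, 0 to 1 between hemispheres at 7 days, 0 to 1 higher and 1 to 2 lower in the difference between the times, and 0 to 1 in that between hemispheres at 7 days. At 7 days against sham, Atf4 ranged from -0.12 (without sham replicate 2) and -0.015 (without tMCAO replicate 1) to 0.41, and Ddit3 from -0.076 (without sham replicate 2) to 0.23, turning sign there. Without the fold limit, 10 list genes (of 106) were higher at 7 days, against 6.07% of all tested genes, and 18 of 20 synthetases at 24 h, against 17.4%. Causes were not tested. Low values limit Chac1.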
